A study of Oryza sativa with 12 samples.

Results

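A set of 54 nuclear genes stood high in 2 of the 3 libraries of untreated IR64 leaves, control 1 and control 2, and low in each of the other 10 libraries of a 12-library study of polysome-bound mRNA in rice (Oryza sativa). They were selected on the measured values themselves, out of 37849 nuclear loci. A gene was kept where the lower of its values in IR64 control 1 and 2 was at least 20 TPM (transcript abundance per length, scaled to a fixed total a library) and at least 8 times the highest of the other 10 values plus 1. Nuclear loci had first been scaled to an equal sum in each library, here called rescaled TPM. Another 2 genes that met these limits, the Rubisco activase gene OsRcaII and 1 of the OsBBX family, were left out by name. The difference between IR64 control 1 and 2 and the other libraries is therefore a description of the choice and not a finding, and it is given with no test.

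The study set 2 cultivars of rice side by side, APO, called tolerant in the series title, and IR64, called susceptible. Plants of each were kept as controls or placed under 50% drought, leaves were taken, and RNA bound to polysomes, the strings of ribosomes that translate an mRNA, was sequenced. The 4 groups are APO control, APO drought, IR64 control and IR64 drought, with 3 libraries in each. The labels give no plant age, length of drought or hour of harvest, and nothing in them ties the 3 libraries of 1 group to different plants, so a p-value measures a spread that may be technical. Total RNA was not used here, so more mRNA and more of it on ribosomes were not separated. In leaf tissue, fewer cells of a type and less RNA per cell cannot be told apart.

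Many leaf genes follow the day. The circadian clock of plants runs on genes that repress each other in turn: CCA1, and its relative LHY in Arabidopsis, peak around dawn, GI and FKF1 later in the day, and the evening complex, with PCL1 (LUX in Arabidopsis) and ELF3, around dusk. Light adds to this timing. Nitrate reductase, Rubisco activase, the enzymes of the Calvin cycle, carotenoid synthesis, ascorbate synthesis and parts of starch metabolism are known for mRNAs that rise with light or in the morning.

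The libraries differed in quality before any gene was compared. The share of deposited TPM on nuclear loci ran from 1.21 to 83.3%. It was lowest in the library labelled APO drought 1 and next lowest in APO control 3 (5.04%), below called the 2 nuclear-poor libraries. IR64 drought 3 (12.3%) and APO drought 2 (13.3%) were also low, and they were kept where those 2 were left out. A relative index of depth (the ratio of deposited coverage to FPKM) lay between 0.608 and 7.34, with 2.84, 7.34 and 4.92 in IR64 control 1, 2 and 3. Of the members, 38 were listed at 0 in the library labelled APO drought 1, 34 in IR64 drought 3, 18 in APO control 3, and 0 to 13 in each of the others. Genes typical of 1 cultivar in the other libraries were used to check the labels. The library labelled APO drought 1 went against its label, with 0 of 17 APO-typical and 12 of 17 IR64-typical genes above 1 rescaled TPM. APO control 3 had 10 of 17 IR64-typical genes above 1 beside 17 of 17 APO-typical ones, and IR64 control 1 had 8 of 19 APO-typical genes beside 20 of 20 IR64-typical ones. Fewer genes typical of the other cultivar were above 1 in APO control 2 (7 of 23), APO drought 2 (5 of 21) and APO drought 3 (3 of 19). In IR64 control 3 they were 4 of 20, in IR64 drought 1 2 of 18, and in IR64 drought 2 1 of 18. All libraries were kept under their labels. Except where stated, results that rest on the 2 nuclear-poor libraries are given with and without them. Nuclear genes of the light reactions, which mark green leaf tissue, summed to 7074 and 5036 rescaled TPM in APO drought 2 and 3 and to 19469 to 49639.9 in the other 10 libraries.

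Together the 54 genes made up 5.74% and 6.31% of nuclear TPM in IR64 control 1 and 2, and 0.0601% to 0.203% in the other 10 libraries. Their mean levels in IR64 control 1 and 2 spanned from 22.4 to 20532 rescaled TPM, with a median of 305. One gene, Aldo, held 34.1% of that summed level. The ratio of control 2 to control 1 had a median of 1.14, and 46 of 54 genes (85.2%) lay within a factor of 1.5. Over the 5431 genes at 20 or more in both, the median was 1.09 and the share 90.6%. Since the rule set its limits on the lower of these values, this closeness is partly fixed by the choice. The widest gaps were at Os07g0178800, with 5336 and 2422 rescaled TPM, and at OsPPT4, with 152 and 247.

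IR64 control 3, the third library of the same group, did not share the high levels. The mean of control 1 and 2 stood 13.7 to 1552 times above control 3 (median 61.2), and the group mean ± SD is therefore not a useful summary for these genes. The ratio of 1552, at OsSWEET2b, divides by only 0.0903 rescaled TPM in control 3, so its size is uncertain. For 33 of 54 members control 3 lay inside the range of the 3 IR64 drought libraries, for 18 above it and for 3 below it. Over 26899 genes at a mean of 1 rescaled TPM or more in the 9 libraries other than IR64 control, the shares were 56.2, 30.3 and 13.5%. The highest of the other 10 values was found in APO drought 2 for 9 members, APO control 3 for 9, APO control 2 for 8, IR64 drought 1 for 8, APO drought 3 for 7, the library labelled APO drought 1 for 5, and in 3 further libraries for 8.

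**Figure D1:**
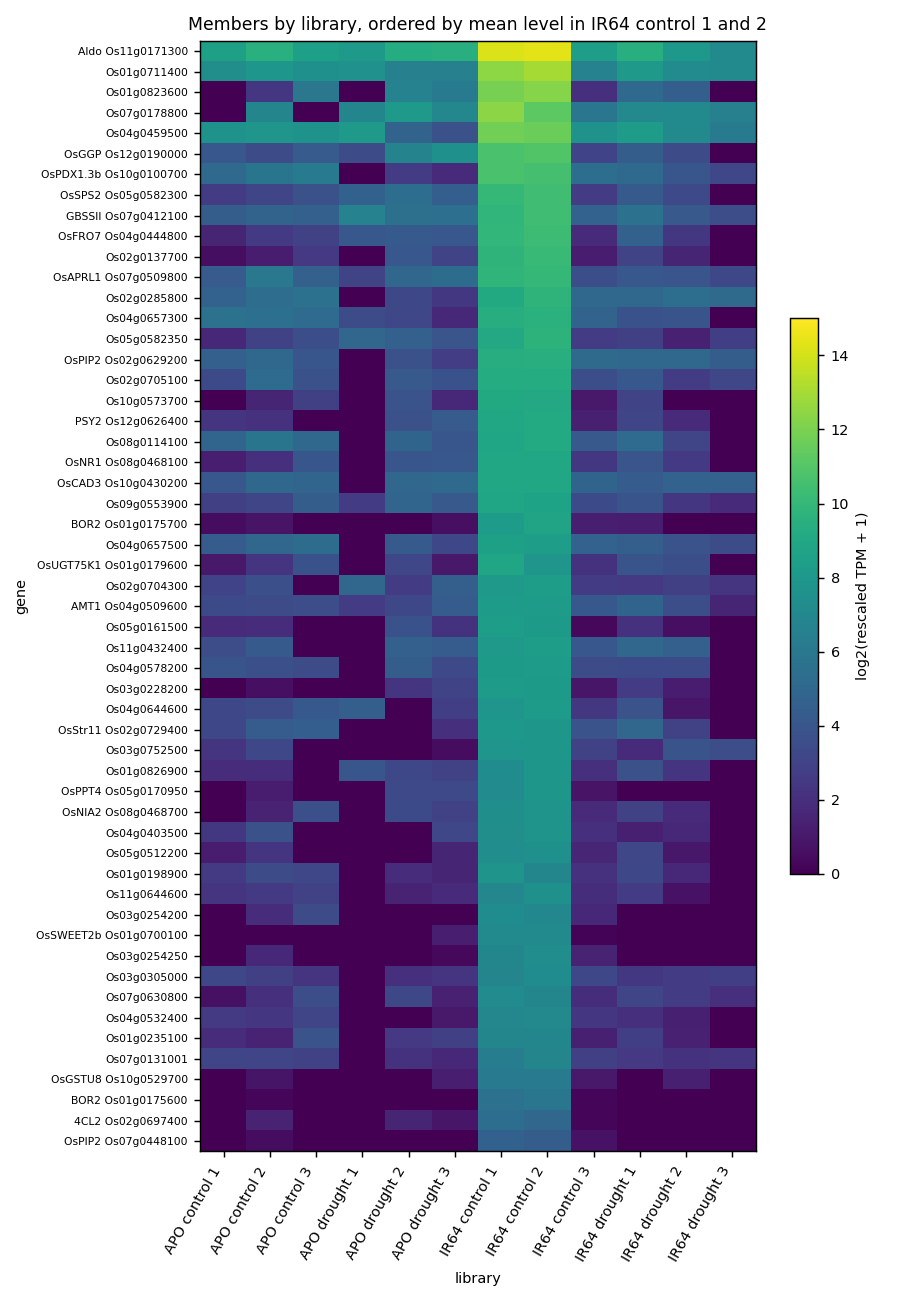
Levels of the 54 genes (rows, ordered by mean level in IR64 control 1 and 2) in the 12 libraries (columns), as log2(rescaled TPM + 1). The columns of IR64 control 1 and 2 stand out in every row, and the library labelled APO drought 1 and IR64 drought 3 hold most of the values at 0 (38 and 34 genes).

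Of the 54 members, 22 carried a gene name in the deposited tables (40.7%), against 41.5% of the 5444 loci with at least 20 rescaled TPM in both IR64 control 1 and 2. The other 32 are given by locus number, since no source used here names them. Members lay on 11 of 12 chromosomes, from 1 on chromosome 9 to 9 each on chromosomes 1 and 4, with none on chromosome 6. Their median span on the genome was 2511.5 bases, against 3469.5 bases for the loci at 20 or more. Coordinates are those of the deposited tables, whose genome build is not given in the sources used here.

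Among the enzymes of carbon metabolism, Aldo (Os11g0171300, chromosome 11, 3488768 to 3491609) led the set. Its symbol denotes an aldolase, an enzyme family that serves the Calvin cycle in the chloroplast and glycolysis in the cytosol. Aldo stood at 19291, 21774 and 319 rescaled TPM in IR64 control 1, 2 and 3, at 369, 726 and 357 in APO control, 274, 614 and 664 in APO drought and 690.0, 259 and 136 in IR64 drought. It was one of 8 members above 1 rescaled TPM in every library, and apart from the pair of high libraries its levels overlapped between all groups.

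GBSSII (Os07g0412100, chromosome 7, 12916883 to 12924202) encodes the granule-bound starch synthase that makes amylose in leaves. It stood at 939 and 1326 rescaled TPM in IR64 control 1 and 2, 25.4 in control 3, 20.1, 25.9 and 23.5 in APO control, 99.8, 45.0 and 43.8 in APO drought and 47.2, 17.1 and 10.5 in IR64 drought. All 3 APO drought values lay above all 3 APO control values. OsPPT4 (Os05g0170950), by its symbol a translocator of phosphoenolpyruvate across the plastid envelope, was at 152 and 247 in the high libraries. It was 0 in all 3 IR64 drought libraries, 0, 1.17 and 0 in APO control and 0, 8.80 and 8.89 in APO drought.

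The sugar transporter gene OsSWEET2b (Os01g0700100, chromosome 1, 28975565 to 28977344) was listed at 0 in most other libraries. It reached 136 and 144 rescaled TPM in IR64 control 1 and 2 and was at 0 in 8 of the other 10 libraries, with 0.0903 in IR64 control 3 and 1.38 in APO drought 3. OsSPS2 (Os05g0582300, chromosome 5, 28984653 to 28987389) bears a symbol used both for a sucrose-phosphate synthase and for a solanesyl diphosphate synthase, and a second locus has the same symbol, so no role is given to it. It stood at 1006 and 1338 in the high libraries and 0 to 41.9 in the others. The member Os05g0582350 (530.1 and 834) overlaps it by 298 bases on the opposite strand, and since the strand setting of the library is not given, reads of these neighbours cannot be told apart.

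Nitrogen assimilation contributed OsNR1 and OsNIA2, both genes of nitrate reductase, which turns nitrate into nitrite at the start of assimilation, and AMT1, an ammonium transporter. OsNR1 (Os08g0468100, chromosome 8, 23033230 to 23038585) stood at 484, 515 and 4.43 rescaled TPM in IR64 control 1, 2 and 3, 1.35, 3.06 and 15.4 in APO control, 0, 15.1 and 15.7 in APO drought and 14.3, 4.75 and 0 in IR64 drought. OsNIA2 (Os08g0468700) lies 13121 bases from it with 3 loci between. The pair may share reads where their sequences are alike, which was not examined. OsNIA2 stood at 179, 213 and 2.61 in IR64 control and at most 11.8 outside the high libraries. Both were low in control 3 as in the 9 libraries of the other groups. AMT1 (Os04g0509600) stood at 305 and 304 and at 1.89 to 27.7 elsewhere. The third nitrate reductase gene, OsNIA1, is no member, but was likewise higher in the pair, at 66.3 and 61.7 against 0 to 16.7.

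PSY2 (Os12g0626400, chromosome 12, 26780492 to 26783584) encodes a phytoene synthase, the first committed enzyme of carotenoid synthesis. It stood at 494, 565 and 1.47 rescaled TPM in IR64 control 1, 2 and 3, 3.83, 3.34 and 0 in APO control, 0, 12.2 and 19.1 in APO drought and 7.63, 2.39 and 0 in IR64 drought. The other phytoene synthase genes did not share this pattern: PSY1 stood at 90.0 and 142 in the high libraries and 87.0 to 289 elsewhere, and OsPSY at 70.5 and 72.1 and 37.6 to 168. In both, the 2 libraries lay within the range of the other 10. PSY2 was therefore the only one of the 3 named phytoene synthase genes in which both libraries stood above the rest.

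OsGGP (Os12g0190000, chromosome 12, 4533049 to 4537221) encodes GDP-L-galactose phosphorylase, the controlling step of ascorbate synthesis. It stood at 1634, 1962 and 7.05 rescaled TPM in IR64 control 1, 2 and 3, 15.9, 10.3 and 18.5 in APO control, 9.84, 102 and 180.1 in APO drought and 20.4, 9.69 and 0 in IR64 drought. APO drought 2 and 3 were thus the next highest after the pair. OsPDX1.3b (Os10g0100700), of the PDX1 family of vitamin B6 synthesis, stood at 1685 and 1538 in the high libraries, 42.6 in control 3, 34.5, 56.6 and 72.7 in APO control, 0, 5.27 and 2.53 in APO drought and 33.6, 15.3 and 8.15 in IR64 drought. Here the APO drought libraries were the lowest of all, below every library of the other groups. Among sulfur-related genes, OsAPRL1 (Os07g0509800), named after adenosine phosphosulfate reductase, stood at 894 and 1036 against 7.39 to 63.7, and OsStr11 (Os02g0729400), of the sulfurtransferases, at 255 and 247 against 0 to 29.7.

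Transporters and metal handling were represented by OsFRO7, BOR2 and OsPIP2. OsFRO7 (Os04g0444800, chromosome 4, 22182599 to 22186919) belongs to the ferric reductases, and its Arabidopsis namesake serves the chloroplast. It stood at 974, 1226 and 2.63 rescaled TPM in IR64 control 1, 2 and 3, 1.98, 4.87 and 6.69 in APO control, 15.98, 18.3 and 15.9 in APO drought and 24.6, 4.31 and 0 in IR64 drought. The APO drought libraries lay above the APO control libraries without overlap, and all 6 lay far below the high pair.

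BOR2, a name of the borate transporters, is given to a pair of neighbouring loci on the minus strand of chromosome 1, Os01g0175700 (3894296 to 3898729) and Os01g0175600 (3878164 to 3884017), with 1 locus between. Os01g0175700 had the largest ratio of the set, 122 against the required 8, with 297 and 432 rescaled TPM in the high libraries and at most 1.43 in the rest. Os01g0175600 stood at 46.5 and 58.3 and at most 0.214. The pair share a name and may share reads, so they are not independent examples. OsPIP2 is the symbol of 2 members, water channels of the plasma membrane: Os02g0629200 stood at 641 and 668 against 0 to 35.2, and Os07g0448100 at 24.2 and 20.6 against 0 to 0.667.

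**Figure D2:**
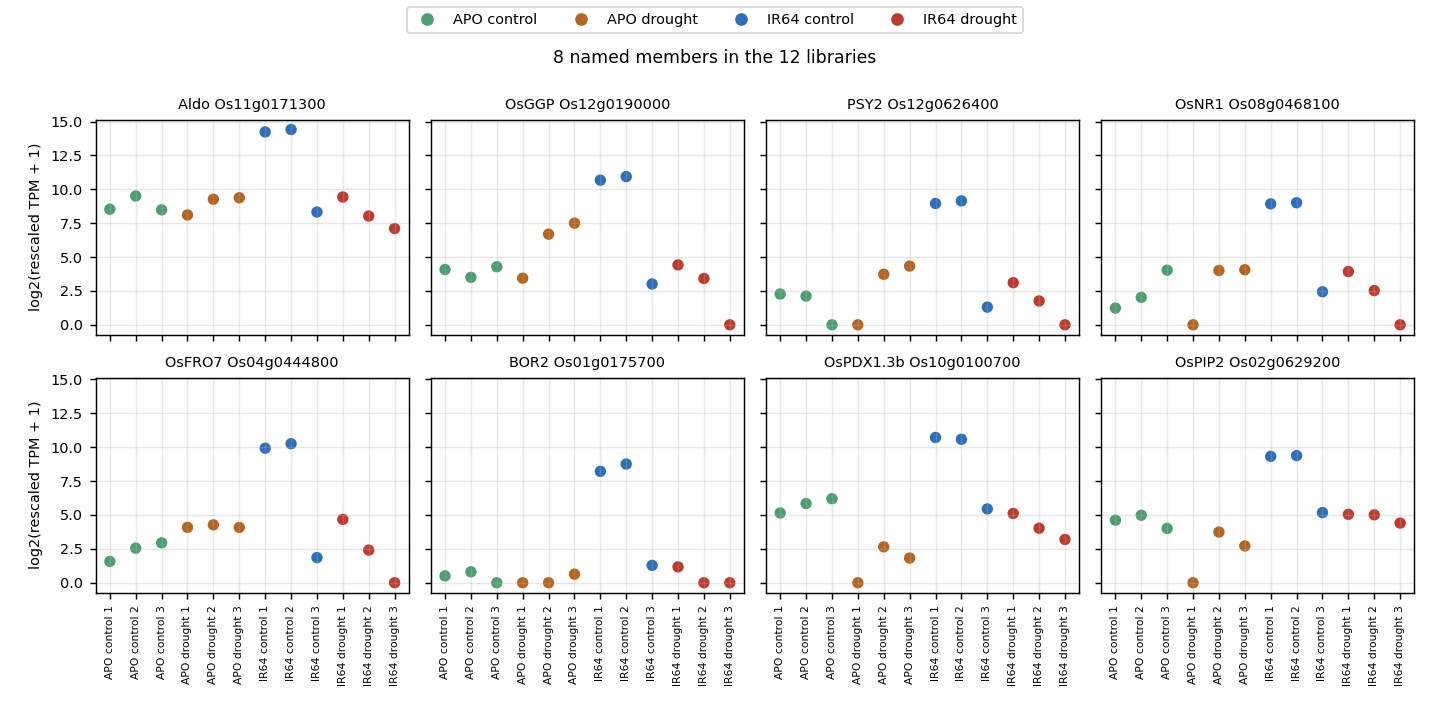
Levels of 8 named members in the 12 libraries as log2(rescaled TPM + 1), 1 point a library, coloured by group. In each panel IR64 control 1 and 2 stand apart from IR64 control 3 and the other 9 libraries. OsGGP, PSY2 and OsFRO7 are also higher in APO drought 2 and 3 than in APO control, and OsPDX1.3b and OsPIP2 are lower there.

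The remaining named members belong to phenylpropanoid and conjugation enzymes. OsCAD3 (Os10g0430200), a cinnamyl alcohol dehydrogenase by its symbol, stood at 495 and 485 rescaled TPM against 0 to 34.6. 4CL2 (Os02g0697400), a 4-coumarate:CoA ligase at the branch to lignin and flavonoids, stood at 41.6 and 29.99 against 0 to 1.98. OsUGT75K1, a glycosyltransferase, stood at 444 and 223 against 0 to 14.2, and OsGSTU8, a glutathione S-transferase, at 67.5 and 72.0 against 0 to 1.54. OsUGT75K1 was lower in control 2 than in control 1, while 35 of the 54 members were higher in control 2.

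Of the 32 unnamed loci, 4 came directly after Aldo in mean level in the high libraries, Os01g0711400 (5549 and 8174), Os01g0823600 (3854 and 4892), Os07g0178800 (given above) and Os04g0459500 (3562 and 3149.6). Os01g0823600 varied widely elsewhere, with 0, 4.09 and 61.3 in APO control, 0, 97.6 and 71.6 in APO drought, 3.15 in IR64 control 3 and 34.6, 22.5 and 0 in IR64 drought. Neighbouring unnamed members were Os03g0254200 and Os03g0254250, 1976 bases apart on the plus strand of chromosome 3, and Os04g0657300 and Os04g0657500, 5125 bases apart on opposite strands of chromosome 4, both with no locus between. Of genes at 20 or more in the high libraries and not left out by name, 54 of 5431 (0.994%) passed the limits.

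The limit at 8 cut through a continuous range. Among named genes the members nearest to it were OsStr11, with a ratio of 8.04, OsGGP (9.02), GBSSII (9.31), 4CL2 (10.1) and AMT1 (10.6). The nearest named genes below it were NAL1 (7.64), CCA1 (7.60), OsF3'H (7.52), CHS* (7.18) and OsHOL1 (7.13). CCA1, the dawn gene of the clock, thus missed the set by a small margin, as did OsF3'H and CHS*, names of flavonoid enzymes. At a ratio of 1, 880 genes lay above all 10 other libraries by this measure, at 2 there were 364, at 4 there were 137, at 16 there were 21, and at 32 there were 9.

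Clock genes also differed between the pair and the other libraries. CCA1 (Os08g0157600) stood at 636, 953 and 1.91 rescaled TPM in IR64 control 1, 2 and 3, 3.44, 1.63 and 6.01 in APO control, 33.7, 82.6 and 55.5 in APO drought and 28.2, 2.60 and 9.74 in IR64 drought. The gene the tables call LHY (Os04g0583900) did not follow it, at 3.09, 1.49 and 4.88 in IR64 control, 9.59, 4.77 and 50.4 in APO control, 0, 158 and 187 in APO drought and 13.8, 15.97 and 40.6 in IR64 drought. It was high in APO drought 2 and 3 and low in the IR64 pair.

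Several evening genes were low in the pair. OsPCL1, of the evening complex, stood at 28.7 and 1.17 rescaled TPM in IR64 control 1 and 2 and at 238 to 778 in the other libraries. FKF1, a blue-light receptor of photoperiodic flowering, stood at 16.01 and 4.69 against 54.1 to 195, and OsELF3.2 at 8.53 and 6.05 against 33.3 to 178. GI, at 409 and 452 against 486 to 1363, and OsPRR59, at 38.5 and 38.5 against 49.4 to 110.9, were lower by less. OsPRR1, at 43.3 and 45.9 against 44.1 to 189.5, overlapped the other libraries. Of 10 day and evening clock genes at a mean of 1 or more, 5 lay below all other 10 libraries in both IR64 control 1 and 2 (6.44% over 26192 genes) and 1, OsZTL1, lay above them (4.40%). These counts use the contrast that chose the members. No hour of harvest is in the labels used here, and the part of the clock genes in the levels of the members was not tested.

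**Figure D3:**
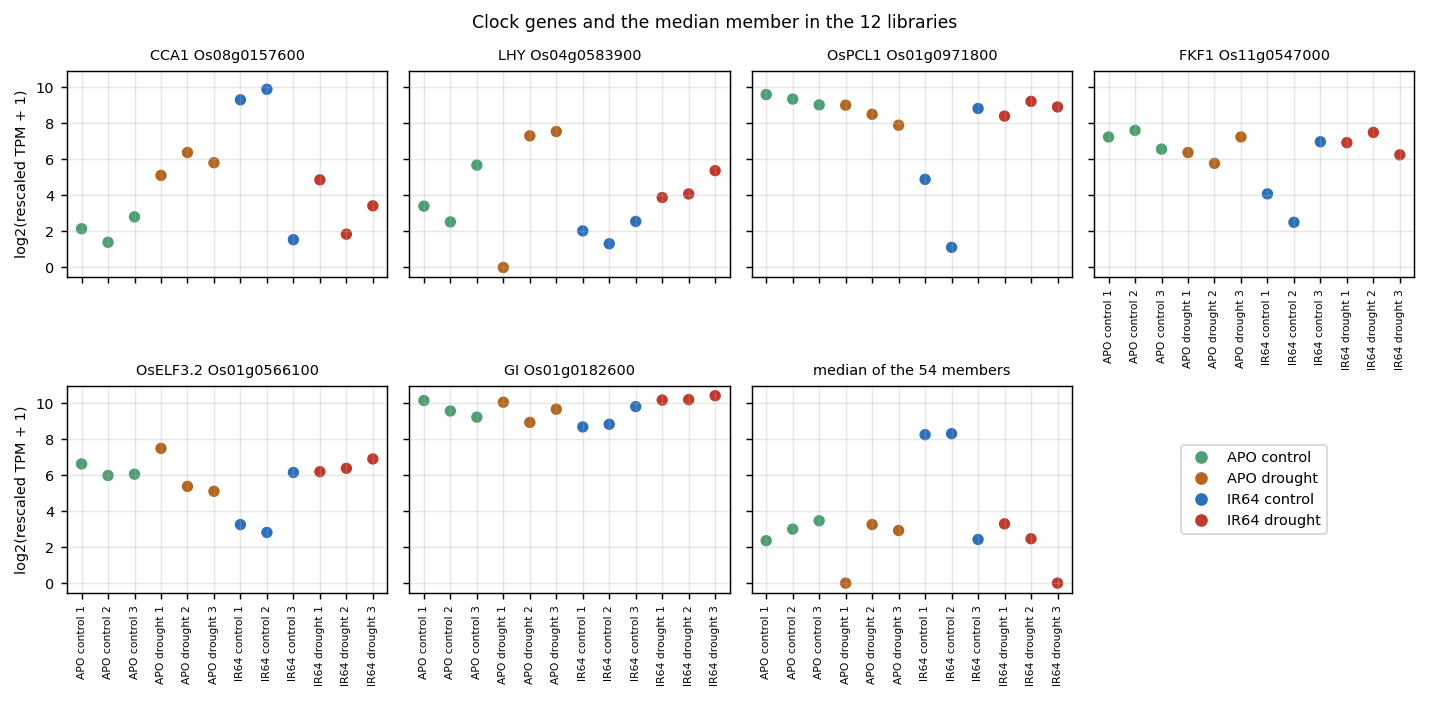
Levels of 6 clock genes and the median over the 54 members in the 12 libraries, as log2(rescaled TPM + 1), 1 point a library, coloured by group. CCA1 and the median member are high in IR64 control 1 and 2, where OsPCL1, FKF1 and OsELF3.2 are at their lowest, and IR64 control 3 sits with the other 9 libraries.

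Functions driven by light or timed to the morning were compared by lists of gene names, made with the tables at hand. Beside each count stands the background of 4.40% of all 26192 genes for which both IR64 control 1 and 2 lay above the other 10 libraries. The list counts use the same contrast as the choice of the members and carry no test. The list of the Calvin cycle and Rubisco activase went by symbol, so it can hold enzymes of glycolysis, such as OsGapC1 and OsGapC3. Of its 17 genes 8 lay above, with Aldo as the only member. OsRcaII, which met the limits and was left out by name, was another of the 8. Also among the 8 were OsPrk, the phosphoribulokinase gene (2454 and 3338 rescaled TPM against 46.0 to 1021), and the Rubisco small subunit gene RBCS Os12g0274700 (3808 and 4647 against 16.04 to 1749). Another small subunit gene, RBCS Os12g0292400, lay above too (730 and 788 against 6.74 to 604). RbcS3 (7278 and 8416 against 165 to 9207), RbcS5 (2063 and 2111 against 20.8 to 4330) and RbcS1 lay within the range of the other libraries. Of 28 light-reaction genes 10 lay above and none was a member, with CAB1R, a chlorophyll-binding protein, at 9772 and 9218 against 511 to 5401. CAB1R thus stood above the others without reaching the ratio of 8.

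Of 4 photoprotection genes, which help leaves shed excess light, 3 lay above: PSBS1, PSBS2 and OsPGR5. PSBS1 and PSBS2 are also counted in the light-reaction list, so these lists are not independent. PSBS1, the photosystem II protein of heat dissipation, stood at 4237 and 2919.8 against 68.8 to 514, and OsPGR5, of cyclic electron flow, at 443 and 398 against 0 to 59.8. Of 17 carotenoid and plastid isoprenoid genes 7 lay above, with PSY2 as the member. Besides it were genes of the plastid pathway to isoprenoid precursors, OsDXR (577 and 795 against 33.2 to 281), OsHDS (1012 and 1491 against 109 to 255) and OsHDR (1817 and 2353 against 147 to 592). Each of these 3 lay above the other 10 libraries in both IR64 control 1 and 2, and none reached the ratio of 8.

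Of 33 nitrogen genes 9 lay above, with 3 members. Beside OsNIA1 these held NiR, the nitrite reductase of the next step, at 125 and 189 against 0 to 42.0. Of 27 aquaporins 10 lay above, with 2 members, and of 32 flavonoid and phenylpropanoid genes 6, with 2 members. Of 33 starch and sucrose genes 9 lay above and 5 below. Its 2 members are GBSSII and OsSPS2, the latter on the list by its ambiguous symbol alone, and without it 8 of 32 lay above. SPS1, which makes sucrose phosphate, stood at 261 and 389 against 13.3 to 84.7. Of 9 florigen and photoperiod genes 4 lay above and none was a member, HD3A, the florigen of rice, at 149.8 and 184 against 0 to 65.0. Chlorophyll synthesis had 2 of 11 above and 1 below, and photorespiration 1 of 14 above and 1 below. Of 12 photoreceptor and light signalling genes 1 lay above, and 2, the phytochrome genes PHYB and PHYC, lay below. Flavonoid genes had 2 below, the Calvin cycle, nitrogen and aquaporin lists 1 each, and the light-reaction, photoprotection, carotenoid and florigen lists 0, against 6.44% of all genes. Members on the function lists numbered 10 of the 22 named ones, or 11 with OsSPS2.

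Markers of other cell types were summed the same way. Guard cell markers (5 loci) came to 88.9 to 89.6 against 39.8 to 81.3 rescaled TPM in the other 10 libraries, and 2 of 4 at a mean of 1 or more lay above all 10. Phloem markers (2 loci) came to 168 to 189 against 41.0 to 408, and root markers (5 loci) to 125 to 141 against 18.4 to 149. Markers of epidermis and cuticle (12 loci) came to 189.6 to 209.9 against 144 to 453, and seed storage markers (7 loci) to 5.64 to 5.68 against 0 to 10.3. Shoot meristem markers (3 loci) reached at most 0.669 in the pair. Apart from guard cells, the sums of the pair lay inside the range of the other libraries. The part of guard cells in the levels of the members was not tested.

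**Figure D4:**
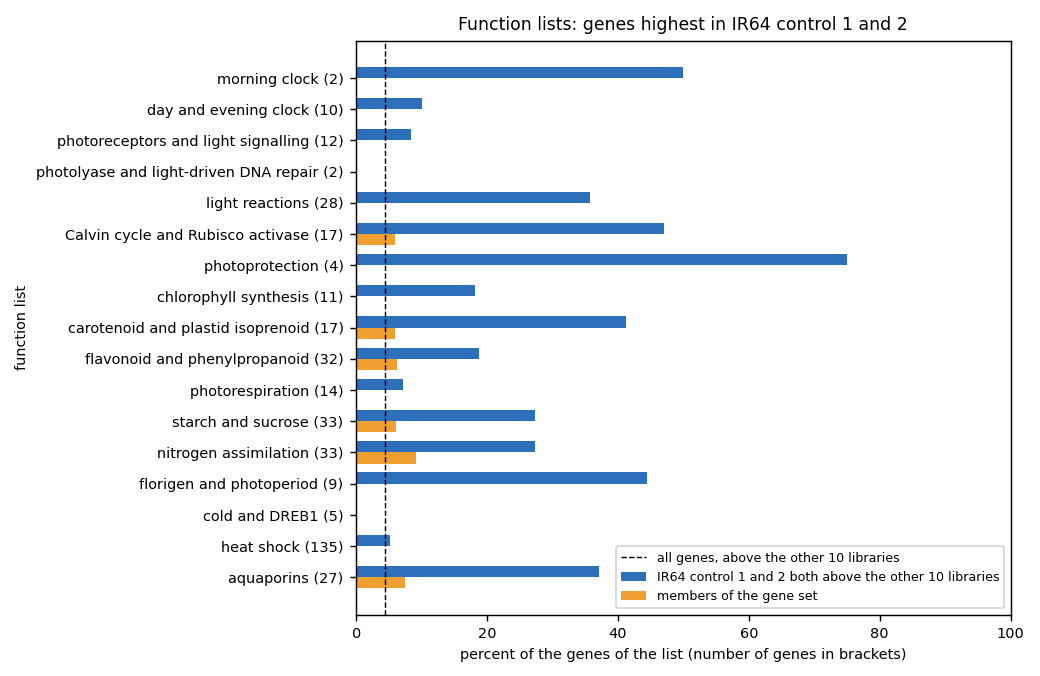
Share of each function list, in percent, for which IR64 control 1 and 2 both lay above the other 10 libraries, and share that are members, with the share over all 26192 genes as a dashed line at 4.40%. Photoprotection (3 of 4), Calvin cycle (8 of 17) and plastid isoprenoid genes (7 of 17) show long bars, while the members are few in every list. PSBS1 and PSBS2 count in both the photoprotection and the light-reaction list. OsRcaII, left out of the members by name, counts among the 8 of the Calvin cycle list.

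How drought changed the same genes in APO was the one drought comparison that did not choose them, since the choice only capped both APO groups alike. It was tested with limma (two-sided moderated test, Benjamini-Hochberg adjustment over all genes tested, called below 0.05) on log2(rescaled TPM + 1) in APO control, APO drought and IR64 drought. The IR64 control group was left out of the fit because its split would enter the error. Of the 54 members 47 reached the filter of a mean of 1 rescaled TPM over the 9 libraries. In the whole fit 398 of 26899 genes were called (1.48%), and 1 member, OsPDX1.3b, fell (0.814% over all genes) and 0 rose (0.665%). At unadjusted p under 0.05 (limma) were 9 of the 47 members, beside 4179 of the 26899 genes. Over all 54 members the median difference was -0.33 log2 units, with 23 higher and 31 lower, against a median of -0.63 over all genes tested.

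OsPDX1.3b, given by sample above, went from 54.6 ± 19.2 to 2.60 ± 2.64 rescaled TPM (SD, n = 3 and 3), a log2 difference of -4.24 ± 0.85 (SE; limma, adjusted p = 0.0295), lower in 3 of 3 drought libraries than in any control. Without the 2 nuclear-poor libraries it was -3.26 ± 0.69 (limma, adjusted p = 0.0104). The call was lost without APO control 1, 2 or 3 or IR64 drought 2 (adjusted p = 0.102, 0.147, 0.117 and 0.0609, limma), and in deposited TPM (adjusted p = 0.704). A pseudocount of 0.1, no filter, median-of-ratios scaling, all 12 libraries and a fit of the APO groups alone also ended it (adjusted p = 0.132, 0.0630, 0.0582, 0.0660 and 0.0781). Over its 18 alternatives the adjusted p ran from 0.00332 to 0.704, and the difference was below 0 in each.

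Leaving out the 2 nuclear-poor libraries left 2 libraries in each APO group and changed the picture. The fit then called 3774 of 23619 genes (16%), of which 1571 rose (6.65%) and 2203 fell (9.33%). Of 46 members tested, 2 rose and 3 fell, OsPDX1.3b among the latter. With so few calls, no difference from the shares over all genes is read. Os01g0823600 rose by 5.23 ± 1.49 (limma, adjusted p = 0.0405) and OsPPT4 by 2.74 ± 0.78 (0.041). Os04g0459500, at 211, 228 and 199 in APO control and 279, 26.7 and 12.1 in APO drought, had a difference of -3.53 ± 0.62 (0.00407), and Os02g0285800, at 25.8, 39.9 and 50.3 and 0, 8.46 and 4.49, of -2.20 ± 0.47 (0.0108). These are limma values, in log2 units with the SE. In the fit of 9 libraries the 4 had adjusted p of 0.737, 0.398, 0.28 and 0.068. For Os04g0459500 the library labelled APO drought 1 stood with the controls.

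Without a test, 6 members had all 3 APO drought libraries above all 3 APO controls (11.1%, against 4.58% of 26899 genes) and 12 had them below (22.2%, against 14.6%). Those above were GBSSII, OsFRO7, OsSPS2 with its overlapping neighbour Os05g0582350, Os07g0178800 and Os01g0826900. Those below included OsPDX1.3b, OsPIP2 (Os02g0629200; -2.39 ± 0.91, adjusted p = 0.233) and OsStr11 (-3.34 ± 1.23, adjusted p = 0.22), both tested with limma. Of the 12, the library labelled APO drought 1 was at 0 in all but 1, Os04g0657300, where it stood at 9.98. With APO drought 2 and 3 against APO control 1 and 2, 19 members lay above (35.2%, against 26.1%) and 16 below (29.6%, against 32.7%).

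Several named members, whose link to light was not tested here, varied in APO. OsGGP differed by 1.92 ± 1.20 log2 units (adjusted p = 0.473, limma) and, without the 2 nuclear-poor libraries, by 3.30 ± 1.16 (0.087). PSY2 differed by 1.22 ± 1.32 and 1.83 ± 1.04, OsNR1 by 0.26 ± 1.38 and 2.41 ± 1.18, and OsFRO7 by 1.79 ± 1.09 with 9 libraries, none of them called. Aldo differed by 0.08 ± 0.59 and 0.30 ± 0.65. The clock gene CCA1 differed by 3.65 ± 0.86 (limma, adjusted p = 0.0584) with 9 libraries and rose by 4.33 ± 0.88 (0.00894) with 7, being higher in 3 of 3 drought libraries. The part of tissue makeup was not tested: APO drought 2 and 3, the drought libraries of the fit of 7, had the lowest sums of light-reaction genes, given above.

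For the 17 function lists in APO the background is 0.665% of all genes rising and 0.814% falling with 9 libraries (limma). Starch and sucrose had 3 of 33 rising, heat shock 2 of 137, and the DREB1 list 1 of 5, with 0 falling in each. Light reactions had 4 of 28 falling and flavonoid genes 2 of 31, with 0 rising, and the Calvin cycle list had 1 of 17 in each direction. The other 11 lists had 0 calls. With 7 libraries the background is 6.65% rising and 9.33% falling.

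In that smaller fit 20 of 28 light-reaction genes fell and 2 rose, with a median difference of -3.40 log2 units against -0.16 over all genes. Of 10 chlorophyll synthesis genes 8 fell and 0 rose (median -2.92), and of 14 photorespiration genes 8 fell and 2 rose (-2.23). Of the 17 genes on the Calvin cycle list, drawn by symbol, 8 fell and 1 rose (-0.81). Carotenoid genes had 4 of 17 falling and 0 rising, photoreceptors 4 of 11 and 0, day and evening clock genes 2 of 10 and 0, florigen genes 2 of 9 and 0, and photolyases 1 of 2 and 0. Flavonoid genes had 6 of 29 falling and 3 rising, and the DREB1 list 2 of 5 and 1. More genes rose than fell in heat shock (18 and 8 of 131), starch and sucrose (7 and 2 of 33), aquaporins (4 and 1 of 23), nitrogen (3 and 1 of 30), the morning clock (2 and 0 of 2) and photoprotection (1 and 0 of 4).

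**Figure D5:**
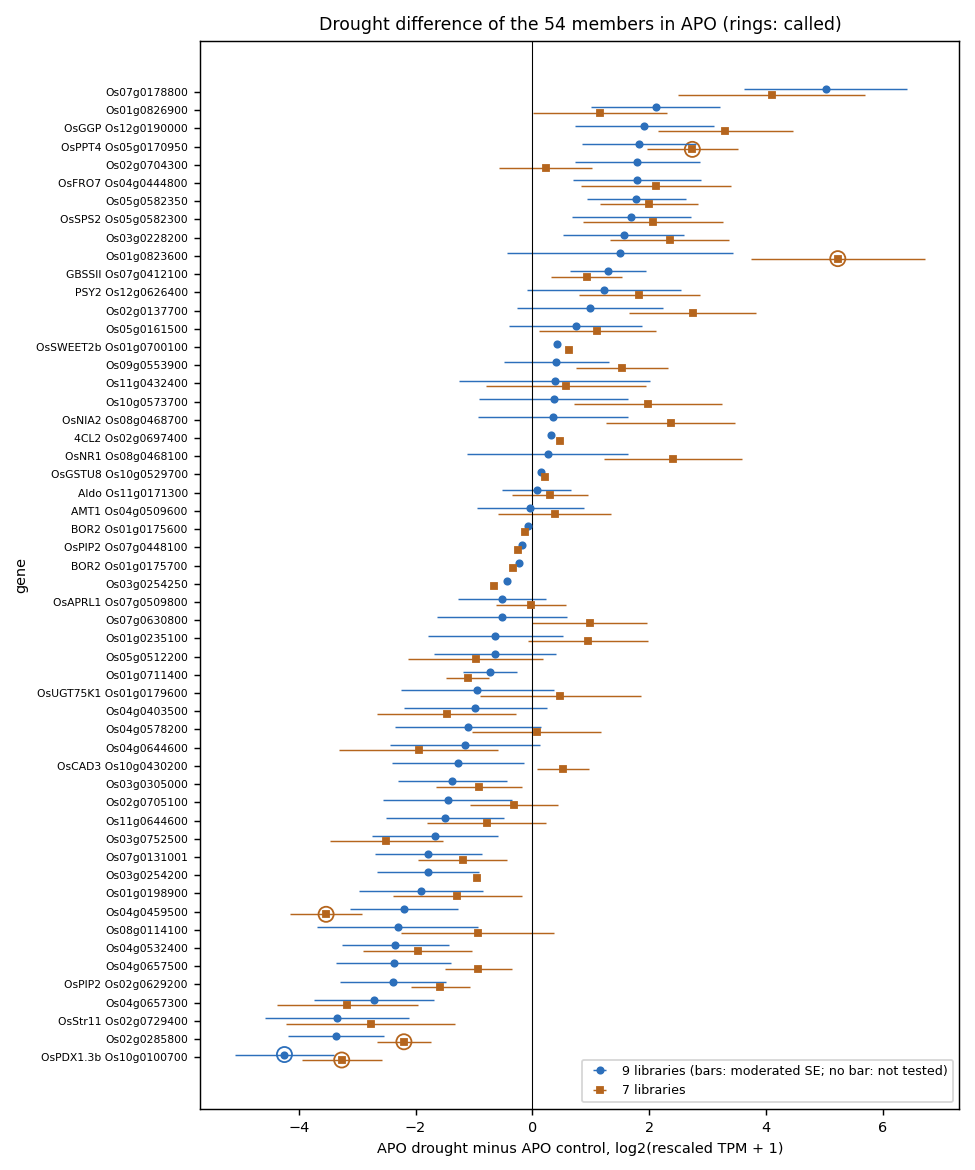
Difference of APO drought minus APO control for each of the 54 members on the log2(rescaled TPM + 1) scale, with moderated SE, for 9 libraries (circles) and for 7 libraries without the 2 nuclear-poor libraries (squares); rings mark calls. With 9 libraries 23 members lie to the right of 0 and 31 to the left, and OsPDX1.3b is the 1 call.

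Between the cultivars under drought, the other comparison free of IR64 control, 0 of 47 tested members were called (limma). Of all 26899 genes 6 were called (0.0223%), 0.00372% higher in APO and 0.0186% lower. At unadjusted p under 0.05 in the same limma fit were 9 of the 47 members, beside 2595 of the 26899 genes. Without the 2 nuclear-poor libraries, 4 of 46 members were called and 3127 of 23619 genes (13.2%), 2 members higher (4.84%) and 2 lower in APO (8.40%). All 3 APO drought libraries lay above all 3 IR64 drought libraries in 2 of 54 members (3.70%, against 3.64% of all genes). These were OsSPS2 and Os05g0582350, which overlap on the genome. In 6 members they lay below (11.1%, against 9.93%), OsPDX1.3b and OsPIP2 (Os02g0629200) among these. The library labelled APO drought 1 was at 0 in each of the 6, and these counts were not repeated without it. OsGGP stood at 9.84, 102 and 180.1 in APO drought and 20.4, 9.69 and 0 in IR64 drought. In the fit of 7 libraries it was higher in APO by 4.48 ± 1.06 (adjusted p = 0.0223, limma), and OsPPT4 by 3.30 ± 0.72 (0.015). Os02g0285800 and Os04g0459500 were lower in APO, by -2.36 ± 0.43 and -2.93 ± 0.57 (0.00607 and 0.00875). With all 9 libraries their adjusted p were 0.417, 0.509, 0.232 and 0.632. Leaving out only the library labelled APO drought 1 also gave 4 called members.

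The drought comparison within IR64 is the one the choice of the members used. In a limma fit of all 12 libraries 0 of 54 members were called, and 52 were at unadjusted p under 0.05, all fitted with IR64 control 3 among the controls. Over all 26192 genes 1 was called lower (0.00382%) and 3.04% were lower at unadjusted p under 0.05. Nothing is read from these counts.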

How the data were processed

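The authors deposited 1 gene table a library with coverage (signal, the mean read depth per base), FPKM (scaled by length and library) and TPM (scaled to 1000000 over all annotated genes, rRNA and organelle genes included), per the file headers. HISAT2 2.1.0, StringTie 1.3.4 and DESeq2 2.11.38 are named in the submitters' processing notes, with no role or order. Genome build and annotation are not given in the sources used here. Read counts were not used here, so depth is known only as a relative index and no counting interval is given.

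TPM of 37849 nuclear loci, without rRNA, was rescaled to 1000000 in each library. The members and lists were chosen with earlier results of these data known. The list names were set from gene symbols, and their patterns were written with the tables open. Named in the text were the 12 highest named members, members on lists, called members, the 5 named genes on each side of the limit, named clock genes and neighbouring members. Promoter sequences were not analysed here. Other named members, the 4 highest unnamed loci, and list genes that are no members, were chosen after their values were seen. Tests used limma 3.58.1 under R 4.3.3, its variance prior following mean level, a pseudocount of 1 and a filter at a mean of 1, in 9 libraries, and were checked on simulated data. A fold change on this scale understates that of low genes. Python 3.11.15 with pandas 2.3.3, numpy 2.4.6 and matplotlib 3.10.9 served for tables and plots. Alternatives were a pseudocount of 0.1, no filter or 5, deposited TPM, median-of-ratios scaling, other sets of libraries, a replicate block and leaving out each library.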

Additional observations from a re-analysis of the deposited data

How the results depend on the processing

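The number of genes passing the limits was 137 at a ratio of 4 and 21 at 16 (54 at 8), 56 and 51 with a minimum of 10 and 50, 74 in deposited TPM (50 shared, 92.6% of the members and 67.6% of the 74), and 71 when the 2 nuclear-poor libraries were left out of the other 10. Called members in APO (1 as reported) were 0 with a pseudocount of 0.1, no filter, deposited TPM, median-of-ratios scaling, all 12 libraries or only the APO groups, 1 with a filter at 5, 5 with 7 libraries, and 0 to 3 leaving out 1 library each (0 without APO control 1, APO control 3 or IR64 drought 2, 3 without the library labelled APO drought 1, and without APO control 2 a different 1, Os07g0178800). Over all genes the APO count of 398 became 117, 203, 1, 295, 793, 193, 499 and 3774 in that order, and 90 to 3220 leaving out 1 library each. Between cultivars under drought 0 members were called in each alternative but 7 libraries (4) and without the library labelled APO drought 1 (range 0 to 4), and the count of 6 genes became 0 to 1951 leaving out 1 library each, 46 with 12 libraries, 3127 with 7, and 0 otherwise. The median APO difference of the members ran from -0.76 to 0.22. Os01g0823600 between cultivars turned from higher to lower in APO without APO drought 2 (-0.15) and without IR64 drought 3 (-0.59), with up to 3.17 leaving out another library, and was called in neither. The cause of these changes was not tested. The labels give same-numbered libraries no shared source. Their deviations correlated at -0.23 to 0.0101 between APO control and drought, at -0.19 to 0.0536 between the drought groups, and at 0.106 to 0.174 between APO control and IR64 drought, which were not compared. In neither comparison did every library correlate best with its own number. With the replicate block 1 member and 354 genes were called in APO, and 0 members and 0 genes between cultivars. Low values limit what can be compared: IR64 drought 3 had 34 of 54 members at 0, and the library labelled APO drought 1 had 38, at depth indices of 0.608 and 2.17.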

Other observations

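The DREB1 genes, transcription factors of the cold response that are gated by the clock in Arabidopsis, summed to 24.6 and 17.3 rescaled TPM there and to 101 to 1950.3 in the other 10 libraries, and 2 of 5 lay below all of them, against 6.44% of 26192 genes. Of 135 heat shock genes 21 lay below and 7 above the other 10 libraries (6.44% and 4.40% over all genes), and the rest lay on neither side. These counts use the contrast that chose the 54 genes, and they carry no test.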
